A study of Mus musculus with 27 samples.

Results

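The genes described here are a list of 44 cell cycle and DNA replication genes, taken by gene symbol, of which 43 were measured among the 18193 genes of the arrays. Ccnb1, the gene of cyclin B1, was not analysed here. Each gene is represented by 1 probe set, the one with the highest mean over all arrays among those annotated with that gene symbol alone. The samples were full-thickness colons on 27 Affymetrix mouse arrays in 9 groups of 3. Il10-/- mice, which lack interleukin-10 and are a standard model of spontaneous colitis, were raised either in conventional housing (coded CC) or under specific-pathogen-free conditions (SPF), and wild-type mice (WT) were raised in conventional housing. Each kind was sampled at 7, 9 and 12 weeks of age, and the groups are written as 9CC, 9SPF or 9WT. The code CC was read as conventional housing by elimination. No wild-type mice in SPF housing are among the samples used here, so SPF against WT changes genotype and housing together. The authors picked the 3 replicates of each group by colon length and colonic damage, so the groups are not random samples of their mice. The labels do not say that each array is 1 animal, and p-values measure only the spread between these samples, which may be technical.

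A dividing cell passes through a fixed order of steps. In G1, helicases are loaded on replication origins and the E2F factors turn on the S-phase genes. DNA is then copied from a pool of deoxyribonucleotides, and Cdk1 with its cyclins starts mitosis, in which a checkpoint at the kinetochores holds the anaphase-promoting complex until every chromosome is attached. In the colon most division takes place in the epithelial crypts, and lymphocytes and other recruited cells also divide in inflamed tissue. Bulk arrays measure all of them together, so fewer cells of a type and less RNA per cell cannot be told apart.

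The genes of these steps are known to be switched on in turn through short promoter elements: E2F sites in S-phase genes, and the cell cycle genes homology region (CHR) together with CCAAT boxes in mitotic genes. Promoter sequences from RefSeq (mouse build GRCm38.p6) were found for 34 of the 43 genes, and the 250 bases before each start were searched on both strands. The CHR was taken as TTTGAA or TTCGAA, the CCAAT box as CCAAT, and the E2F site as TTTGGCGC, TTTCGCGC, TTTCCCGC or TTTGCCGC. Matches of E2F and CCAAT motifs can overlap others of their kind and were counted at each position. A gene with several promoters was counted once if any of them matched, whereas the shares of all promoters count each promoter. A CHR stood in 11 of the 34 genes (32.4%) and in 17.1% of all 32851 promoters. CCAAT stood in 25 of 34 (73.5%) against 33.8% of all promoters, and an E2F motif in 5 of 34 (14.7%) against 1.86%. The 5 genes with an E2F motif were Cdc6, Mcm5, Mcm6, Mcm7 and Cdk1, 4 of them in origin licensing. Of the 6 chromosome and spindle genes with a promoter sequence, 4 held a CHR. Such matches describe letters in a window and are not evidence of binding.

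The promoter bases of 3 genes with a CHR are shown first, because these genes were followed array by array below: Mcm2 (chr6:88898781-88899030, minus strand), Bub1b (chr2:118597961-118598210, plus strand) and Ube2c (chr2:164769679-164769928, plus strand). Capitals mark the motif matches on either strand, so a CCAAT on the opposite strand reads ATTGG and a CHR reads TTCAAA or TTCGAA. The CHR lies 70 bases before the start in Mcm2, 188 in Bub1b and 29 in Ube2c, and Ube2c carries 6 CCAAT matches.
Mcm2: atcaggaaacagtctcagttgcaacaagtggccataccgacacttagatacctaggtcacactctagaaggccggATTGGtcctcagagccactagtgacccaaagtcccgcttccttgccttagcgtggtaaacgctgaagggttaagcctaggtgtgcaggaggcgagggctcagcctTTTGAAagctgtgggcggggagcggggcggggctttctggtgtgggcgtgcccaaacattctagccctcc
Bub1b: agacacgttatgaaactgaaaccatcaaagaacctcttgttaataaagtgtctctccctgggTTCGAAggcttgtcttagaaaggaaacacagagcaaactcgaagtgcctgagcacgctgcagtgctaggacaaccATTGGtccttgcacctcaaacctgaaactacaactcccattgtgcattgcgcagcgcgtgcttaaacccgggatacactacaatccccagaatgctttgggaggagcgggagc
Ube2c: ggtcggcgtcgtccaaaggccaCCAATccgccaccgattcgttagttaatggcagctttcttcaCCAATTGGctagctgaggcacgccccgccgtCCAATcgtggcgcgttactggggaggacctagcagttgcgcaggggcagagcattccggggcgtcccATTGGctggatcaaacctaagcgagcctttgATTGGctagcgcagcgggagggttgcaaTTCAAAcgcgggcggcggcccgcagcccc

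Among genes followed array by array, no promoter searched held an E2F motif, and those of Gins1, Foxm1 and Tpx2 were not searched. The first 3 other genes with one were therefore chosen, after the matches were seen: Cdc6 (chr11:98907901-98908150, plus strand), Mcm5 (chr8:75109259-75109508, plus strand) and Mcm6 (chr1:128359706-128359955, minus strand). Capitals again mark matches, an E2F motif on the opposite strand reading as its reverse complement. The runs in Mcm5 and Mcm6 that read TTTCGCGCCAAA and TTTGGCGCGAAA each hold overlapping E2F matches on both strands.
Cdc6: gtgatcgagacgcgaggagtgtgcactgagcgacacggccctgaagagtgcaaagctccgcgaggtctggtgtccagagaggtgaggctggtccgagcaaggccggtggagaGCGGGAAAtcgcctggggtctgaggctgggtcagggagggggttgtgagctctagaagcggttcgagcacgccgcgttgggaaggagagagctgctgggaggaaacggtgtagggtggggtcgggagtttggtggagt
Mcm5: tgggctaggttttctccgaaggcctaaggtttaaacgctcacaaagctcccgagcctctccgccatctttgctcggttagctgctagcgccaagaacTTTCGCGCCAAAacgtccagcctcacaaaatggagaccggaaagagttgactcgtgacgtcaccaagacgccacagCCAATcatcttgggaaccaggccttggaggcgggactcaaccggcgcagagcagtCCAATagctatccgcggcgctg
Mcm6: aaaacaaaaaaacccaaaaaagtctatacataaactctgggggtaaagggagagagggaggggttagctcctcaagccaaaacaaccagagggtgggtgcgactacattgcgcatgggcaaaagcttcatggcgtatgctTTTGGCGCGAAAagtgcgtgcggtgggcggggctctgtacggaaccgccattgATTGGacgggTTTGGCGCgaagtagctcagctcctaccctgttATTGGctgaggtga

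Il10, the targeted gene, read between 4.66 and 7.09 log2 units on the 18 knockout arrays and between 3.51 and 3.83 on the 9 wild-type arrays. The position of its probe set relative to the disrupted part of the gene is not given, so it checks no label. No measured gene separates CC from SPF by construction, so those labels could not be checked either. Array medians lay between 4.92 and 4.99. The array 12WT replicate 2 stood apart in the difference between 3' and 5' actin probe sets, a sign of RNA quality, at 0.946 log2 units, where the other 26 lay between 0.374 and 0.715. Counts and medians against 12WT are given with and without it, and list counts where they differ.

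At 9 weeks the cycle genes were higher in both kinds of Il10-/- mice than in wild types. In 9CC against 9WT, 40 of the 43 rose and none fell (limma, adjusted p under 0.05 over all genes), where 14.2% of all genes rose. In 9SPF against 9WT, 36 of 43 rose and none fell, where 7.41% of all genes rose. The 9SPF calls, in the roles below as well, leaned on 9SPF replicate 3, without which 10 of the 43 passed. The median difference was 1.10 log2 units in 9CC and 0.99 in 9SPF, beside a median over all genes of within 0.03 of 0 in each. At 12 weeks the pattern held in SPF mice, with 40 of 43 higher in 12SPF than in 12WT (18.2% of all genes rose) and a median of 1.04. In 12CC against 12WT, however, none of the 43 passed the test, where 0.451% of all genes passed in either direction. Without 12WT replicate 1, 4 of the 43 passed, and 834 of all 18193 genes did. CC and SPF are set against the same wild-type arrays at each age, so their differences from wild type are not independent.

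**Figure D1:**
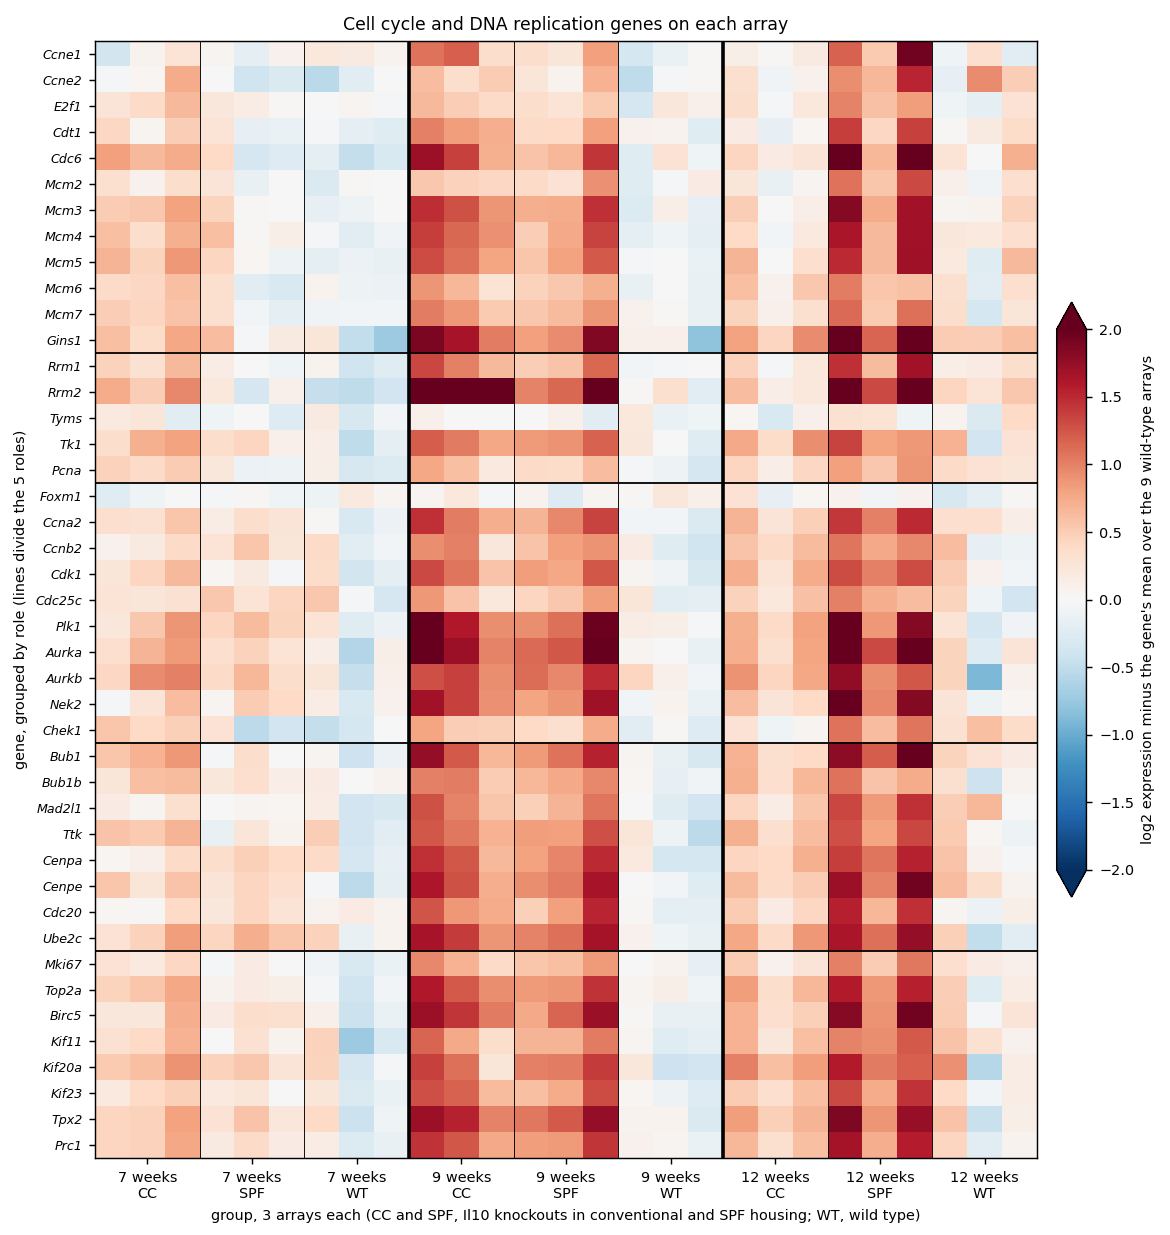
Log2 expression of the 43 genes (rows, by role) on each of the 27 arrays (columns, by group), as the difference from the gene's mean over the 9 wild-type arrays. Differences beyond 2 log2 units take the end colour. The 9CC, 9SPF and 12SPF columns are red in nearly every row, whereas the 12CC columns are paler, and the rows of Foxm1 and Tyms are pale throughout.

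Origin licensing and entry into S phase was covered by 12 genes, of which 11 rose in 9CC, 7 in 9SPF and 11 in 12SPF. Gins1 encodes a subunit of the GINS complex, which activates the replicative helicase. It read 7.08, 6.86 and 6.23 on the 9CC arrays, 6.02, 6.15 and 7.05 on the 9SPF arrays and 5.30, 5.30 and 4.39 on the 9WT arrays. Its difference was 1.73 ± 0.31 (SE) in 9CC against 9WT (adjusted p = 0.000594), a 3.31-fold rise, and 1.41 ± 0.31 in 9SPF against 9WT (adjusted p = 0.00638). All 6 knockout arrays of that age lay above all 3 wild types. Mcm3, a subunit of the helicase that is loaded on origins as Mcm2 to Mcm7, read 8.41, 8.20 and 7.81 in 9CC, 7.65, 7.67 and 8.38 in 9SPF and 6.64, 7.05 and 6.76 in 9WT. The 9CC difference was 1.32 ± 0.24 (adjusted p = 0.000622). No 9CC or 9SPF array overlapped the wild types. Mcm2 showed the smallest change of the 12 in 9CC, reading 8.37, 8.28 and 8.24 in 9CC, 8.21, 8.11 and 8.74 in 9SPF and 7.59, 7.81 and 7.99 in 9WT. That was 0.50 ± 0.18 (adjusted p = 0.0462), close to the threshold, and a second Mcm2 probe set gave 1.19 ± 0.22.

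The other helicase subunits, Mcm4, Mcm5, Mcm6 and Mcm7, rose by 0.70 to 1.30 log2 units in 9CC and by 0.66 to 1.02 in 9SPF. Cdc6 and Cdt1, which load that helicase, rose in 9CC by 1.28 ± 0.31 and 0.89 ± 0.20. In 9SPF their differences were 0.90 ± 0.31 (adjusted p = 0.0614) and 0.56 ± 0.20 (adjusted p = 0.0671), short of the threshold. The same held for Ccne1, which encodes cyclin E1, the partner of Cdk2 at S-phase entry: 1.03 ± 0.26 in 9CC (adjusted p = 0.00648) and 0.62 ± 0.26 in 9SPF (adjusted p = 0.117). E2f1, a transcription factor of S-phase genes, gave 0.51 ± 0.15 in 9CC (adjusted p = 0.0148) and 0.38 ± 0.15 in 9SPF (adjusted p = 0.0946). The 4 genes thus passed against wild type in 9CC and not in 9SPF, but none of the 43 differed between 9CC and 9SPF when that difference was tested. Ccne2, which encodes the second E cyclin, missed the threshold against the wild type of its age in every group, with 0.67 ± 0.26 in 9CC (adjusted p = 0.0612) and 0.61 ± 0.26 in 12SPF (adjusted p = 0.0692). Without 12WT replicate 2 it passed in 12SPF, with 0.87 ± 0.27 (adjusted p = 0.0186). It rose in 12SPF against 7SPF and fell in 12CC against 12SPF.

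Nucleotide supply and DNA synthesis was covered by 5 genes, and 4 rose in each of 9CC, 9SPF and 12SPF. Rrm2, the regulated small subunit of ribonucleotide reductase, which makes deoxyribonucleotides, showed the widest range of the 43. At 7 weeks it read 7.93, 7.68 and 8.14 in 7CC, 7.39, 6.86 and 7.29 in 7SPF and 6.72, 6.67 and 6.80 in 7WT. At 9 weeks it read 9.67, 9.19 and 9.22 in 9CC, 8.19, 8.34 and 9.59 in 9SPF and 7.21, 7.50 and 6.97 in 9WT. At 12 weeks it read 7.80, 7.32 and 7.40 in 12CC, 10.03, 8.51 and 10.55 in 12SPF and 7.62, 7.46 and 7.73 in 12WT. The 9CC, 9SPF and 12SPF arrays therefore lay above all wild types of their age, and 12CC arrays lay around theirs. The rise was 2.13 ± 0.36 in 9CC (4.38-fold, adjusted p = 0.000385), 1.48 ± 0.36 in 9SPF (adjusted p = 0.0118) and 2.09 ± 0.36 in 12SPF (4.27-fold, adjusted p = 0.000207). In 12CC against 12WT the difference was -0.10 ± 0.36 (adjusted p = 0.932).

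Rrm1, the large subunit of the same enzyme, read 9.39, 9.06 and 8.71 in 9CC, 8.56, 8.63 and 9.21 in 9SPF and 7.997, 8.04 and 8.05 in 9WT. It rose by 1.03 ± 0.22 in 9CC and 0.77 ± 0.22 in 9SPF (adjusted p = 0.00203 and 0.0251). Every knockout array stood above the wild types. Tk1, the thymidine kinase of the salvage pathway, rose by 1.02 ± 0.23 in 9CC, 0.99 ± 0.23 in 9SPF and 0.80 ± 0.23 in 12SPF. Pcna, the sliding clamp of DNA polymerase, rose by 0.67 ± 0.15, 0.60 ± 0.15 and 0.43 ± 0.15 in the same groups. Tyms, thymidylate synthase, read 4.48, 4.38 and 4.39 in 9CC, 4.39, 4.48 and 4.15 in 9SPF and 4.60, 4.25 and 4.30 in 9WT. Its difference in 9CC was 0.03 ± 0.17 (adjusted p = 0.918), and the groups overlapped in every comparison with wild type. The Tyms probe set averaged 4.39 over the 27 arrays, below every array median and at percentile 31.3 of all genes. Signal over background is unknown, so whether it could show a rise cannot be told.

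Mitotic entry was covered by 10 measured genes, and 9 rose in each of 9CC, 9SPF and 12SPF. Aurka, the kinase that matures centrosomes and spindle poles, read 8.82, 8.53 and 7.83 in 9CC, 7.95, 8.07 and 8.93 in 9SPF and 6.88, 6.81 and 6.68 in 9WT. It rose 3.03-fold in 9CC, or 1.60 ± 0.28 log2 units (adjusted p = 0.000512), and by 1.53 ± 0.28 in 9SPF (adjusted p = 0.00231). No knockout array of that age overlapped the wild types. At 12 weeks Aurka read 7.55, 7.15 and 7.62 in 12CC, 8.99, 8.14 and 9.00 in 12SPF and 7.28, 6.57 and 7.09 in 12WT. The 12SPF arrays were above every array of the other groups of that age. Plk1, a kinase that acts at mitotic entry and in cytokinesis, read 8.73, 8.28 and 7.62 in 9CC, 7.61, 7.80 and 8.66 in 9SPF and 6.84, 6.81 and 6.64 in 9WT. The 9CC difference was 1.45 ± 0.30 (adjusted p = 0.00161), with no overlap.

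Cdk1, the kinase that drives mitosis, rose by 1.10 ± 0.20 in 9CC and 1.06 ± 0.20 in 9SPF. Its partners Ccna2 (cyclin A2) and Ccnb2 (cyclin B2) rose by 1.20 ± 0.17 and 0.88 ± 0.21 in 9CC, and Ccna2 had the smallest adjusted p of the 43 there, 8.95e-05. Cdc25c, a phosphatase that activates Cdk1, rose by 0.60 ± 0.21 in 9CC (adjusted p = 0.0416), and its 9CC and 9WT arrays overlapped. Aurkb, the kinase of the chromosomal passenger complex, and Nek2, a centrosome kinase, rose by 1.04 ± 0.27 and 1.36 ± 0.25 in 9CC. Chek1, the kinase that halts the cycle when replication stalls, rose by 0.74 ± 0.18 in 9CC.

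Foxm1, a transcription factor of late cycle genes, was the exception of its role. The probe set used read 6.44, 6.60 and 6.36 in 9CC, 6.46, 6.12 and 6.45 in 9SPF and 6.40, 6.61 and 6.48 in 9WT, a 9CC difference of -0.03 ± 0.12 (adjusted p = 0.894). The 3 groups overlapped throughout. Another Foxm1 probe set, with a lower mean, read 6.58, 6.28 and 6.15 in 9CC, 5.76, 5.94 and 6.91 in 9SPF and 5.35, 5.42 and 5.28 in 9WT, with every knockout array above every wild type. That probe set gave 0.99 ± 0.26 in 9CC (adjusted p = 0.00962 over 34945 probe sets) and 1.23 ± 0.26 in 12SPF (adjusted p = 0.0011). A further probe set gave 0.35 ± 0.15 in 9CC (adjusted p = 0.103) and 0.68 ± 0.15 in 12SPF (adjusted p = 0.00135), and the last averaged 2.59 over all arrays. Foxm1 therefore moved or not depending on the probe set, while none of the 4 Tyms probe sets passed in 9CC. Across the 43 genes, 102 probe sets carried a member's symbol alone. Of the 59 not used, 32 rose in 9CC and none fell. With all probe sets of a gene averaged, the 9CC difference was 0.45 for Tpx2, 0.82 for Aurka, 0.84 for Bub1, 0.85 for Mcm2 and 1.12 for Gins1, each past the threshold, beside 1.46, 1.60, 1.35, 0.50 and 1.73 with the probe set used.

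**Figure D2:**
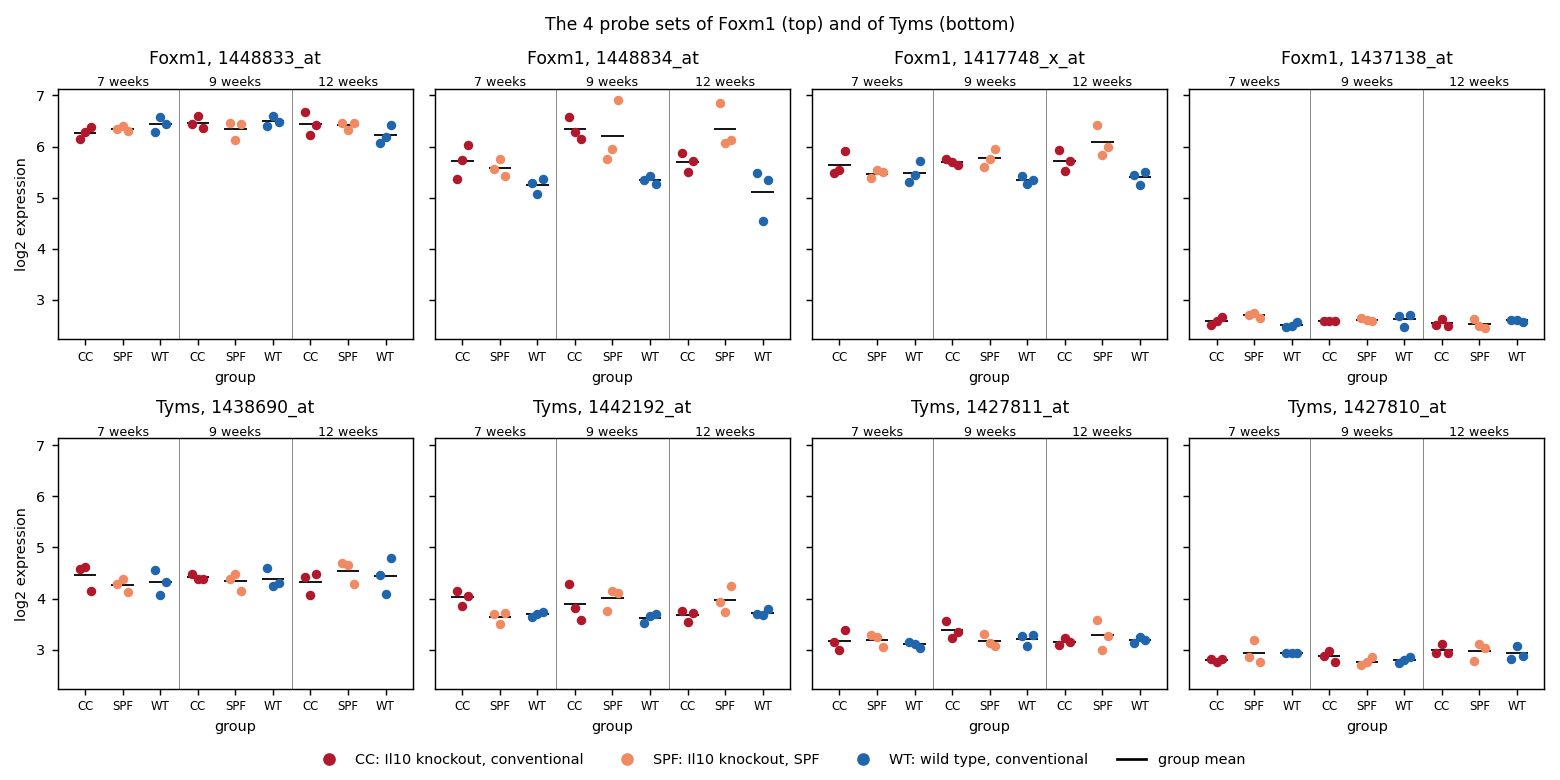
Log2 expression on single arrays of the 4 probe sets of Foxm1 (top) and the 4 of Tyms (bottom), by group, with 3 arrays per group. The second Foxm1 probe set reads 6.15 to 6.58 in 9CC and 5.28 to 5.42 in 9WT, whereas the first, the one used, overlaps between these groups, as do all 4 of Tyms.

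Kinetochores, the spindle checkpoint and the anaphase-promoting complex were covered by 8 genes, and all 8 rose in 9CC, 9SPF and 12SPF. Ube2c, the ubiquitin-conjugating enzyme of the anaphase-promoting complex, read 10.62, 10.37 and 9.84 in 9CC, 9.95, 10.07 and 10.63 in 9SPF and 9.05, 8.87 and 8.82 in 9WT. At 12 weeks it read 9.73, 9.35 and 9.83 in 12CC, 10.60, 10.07 and 10.71 in 12SPF and 9.44, 8.47 and 8.73 in 12WT. Differences from wild type were 1.36 ± 0.24 in 9CC (adjusted p = 0.000625), 1.30 ± 0.24 in 9SPF (adjusted p = 0.00268) and 1.58 ± 0.24 in 12SPF (adjusted p = 9.28e-05). In these 3 comparisons no arrays overlapped, while 12CC arrays reached into the range of 12WT. Bub1, a checkpoint kinase at the kinetochore, read 8.18, 7.66 and 7.09 in 9CC, 7.28, 7.51 and 7.97 in 9SPF and 6.49, 6.29 and 6.11 in 9WT. It rose by 1.35 ± 0.24 in 9CC and 1.29 ± 0.24 in 9SPF (adjusted p = 0.000546 and 0.00231), and neither group overlapped wild type. Bub1b, another checkpoint component, had the smallest 9CC change of the 8 at 0.91 ± 0.17 (adjusted p = 0.000886). It read 7.89, 7.90 and 7.39 in 9CC, 7.54, 7.65 and 7.84 in 9SPF and 6.92, 6.72 and 6.81 in 9WT.

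The remaining genes of this role rose within a narrow band. Mad2l1 and Ttk, both of the spindle checkpoint, rose by 1.15 ± 0.20 and 1.13 ± 0.23 in 9CC. Cenpa, the centromeric histone variant, and Cenpe, a kinetochore motor, rose by 1.29 ± 0.22 and 1.30 ± 0.23. Cdc20, the activator of the anaphase-promoting complex, rose by 1.08 ± 0.22. In 9SPF these 5 rose by 0.95 to 1.30 log2 units.

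Chromosomes, spindle motors and cytokinesis were covered by 8 genes, and all 8 rose in 9CC, 9SPF and 12SPF. Birc5 (survivin), of the chromosomal passenger complex, read 9.83, 9.55 and 9.16 in 9CC, 8.89, 9.30 and 9.85 in 9SPF and 8.14, 7.99 and 7.98 in 9WT. It rose by 1.48 ± 0.25 in 9CC (adjusted p = 0.000349) and 1.31 ± 0.25 in 9SPF (adjusted p = 0.00277), again without overlap. Tpx2, which activates Aurka on the spindle, read 8.44, 8.27 and 7.72 in 9CC, 7.78, 7.94 and 8.48 in 9SPF and 6.80, 6.79 and 6.44 in 9WT. Its 9CC rise was 1.46 ± 0.27 (adjusted p = 0.000781), and all knockout arrays lay above the wild types. Mki67, the widely used marker of proliferation, had the smallest 9CC change of the 8. It read 10.07, 9.98 and 10.20 in 7CC, 9.75, 9.95 and 9.79 in 7SPF and 9.71, 9.49 and 9.65 in 7WT. At 9 weeks it read 10.74, 10.47 and 10.17 in 9CC, 10.34, 10.38 and 10.64 in 9SPF and 9.78, 9.86 and 9.62 in 9WT. At 12 weeks it read 10.29, 9.88 and 10.04 in 12CC, 10.80, 10.30 and 10.84 in 12SPF and 10.13, 9.95 and 9.88 in 12WT. The rise was 1.64-fold in 9CC (0.71 ± 0.15, adjusted p = 0.00181), 1.63-fold in 9SPF (adjusted p = 0.00529) and 1.58-fold in 12SPF (adjusted p = 0.00165). The 12CC and 12WT arrays overlapped.

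Top2a, the topoisomerase that untangles sister chromosomes, rose by 1.23 ± 0.21 in 9CC and 1.04 ± 0.21 in 9SPF. Kif11, the motor that pushes spindle poles apart, rose by 0.89 ± 0.23 in 9CC. Kif20a and Kif23, kinesins of the central spindle, rose by 1.09 ± 0.30 and 1.14 ± 0.20, and Prc1, which bundles the microtubules of that spindle, by 1.14 ± 0.22.

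**Figure D3:**
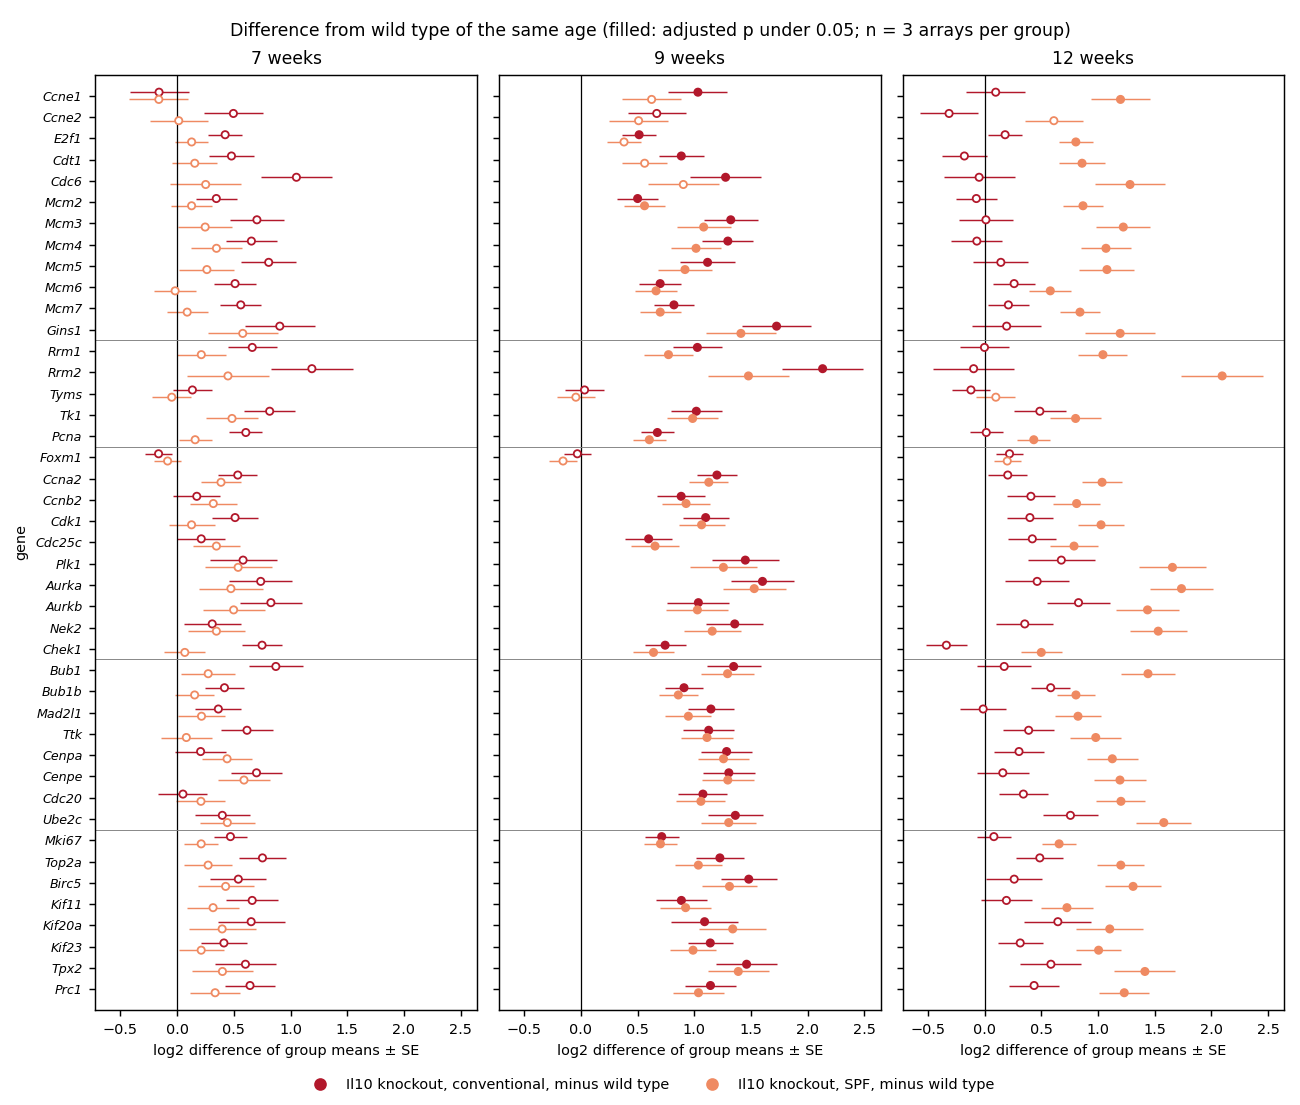
Difference of group means from wild type of the same age (log2 units ± SE) for each of the 43 genes, in CC and SPF mice, with 1 panel per age and filled points where the adjusted p is under 0.05. Medians are 0.56 and 0.26 at 7 weeks, 1.10 and 0.99 at 9 weeks and 0.21 and 1.04 at 12 weeks for CC and SPF.

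Setting 9CC against 9SPF directly, none of the 43 genes passed the test, none had an unadjusted p under 0.05, and every gene's arrays overlapped. Over all genes 0% passed, 5.32% were higher and 2.75% lower in 9CC at an unadjusted p under 0.05, and 6.85% were higher and 4.95% lower without overlap. The differences ran from -0.25 ± 0.30 (Kif20a) to 0.65 ± 0.36 (Rrm2), with a median of 0.08. The spread of 3 arrays per group leaves room for differences of that size.

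The single arrays of a group did not rise equally. The mean of the 43 genes, each centred on its own mean over 27 arrays, was 0.81, 0.59 and 0.20 on the 9CC arrays, 0.20, 0.27 and 0.77 on the 9SPF arrays and -0.44, -0.48 and -0.64 on the 9WT arrays. At 12 weeks it was 0.11, -0.26 and 0.01 in 12CC, 0.98, 0.32 and 0.97 in 12SPF and -0.11, -0.46 and -0.27 in 12WT. The arrays 9SPF replicate 3, 12SPF replicate 1 and 12SPF replicate 3 stood highest within their groups, 9CC replicate 3 and 12SPF replicate 2 lowest. Without 9SPF replicate 3, 10 genes rather than 36 passed in 9SPF against 9WT. Of all genes 283 passed in that fit, in either direction, beside 1349 higher and 806 lower with every array. The 10 were Ccna2, Cdk1, Aurka, Bub1, Bub1b, Cenpa, Cenpe, Ube2c, Birc5 and Tpx2. The other genes called in 9SPF, among them Gins1, Mcm3, Rrm1, Rrm2, Plk1 and Mki67, lost their call. Leaving out 1 array at a time gave 34 to 41 genes in 9CC against 9WT and 36 to 41 in 12SPF against 12WT, and in each comparison 34 of the 40 passed in every such fit. Without 12WT replicate 2, 37 passed in 12SPF against 12WT, with a median of 0.98. Mcm6, Tk1, Pcna and Kif20a then missed the threshold (adjusted p 0.0587 to 0.125) and Ccne2 passed. By role 11 of 12 origin genes rose, 2 of 5 of nucleotide supply, 9 of 10 of mitotic entry, all 8 of the kinetochore and 7 of 8 of chromosomes and spindle. The difference without that array was 2.02 ± 0.41 for Rrm2, 1.53 ± 0.30 for Aurka, 1.38 ± 0.26 for Ube2c and 0.64 ± 0.17 for Mki67, all past the threshold. With the spread estimated from the 6 arrays of that comparison alone, 20 passed in 12SPF against 12WT, where 1321 of all genes passed in either direction.

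**Figure D4:**
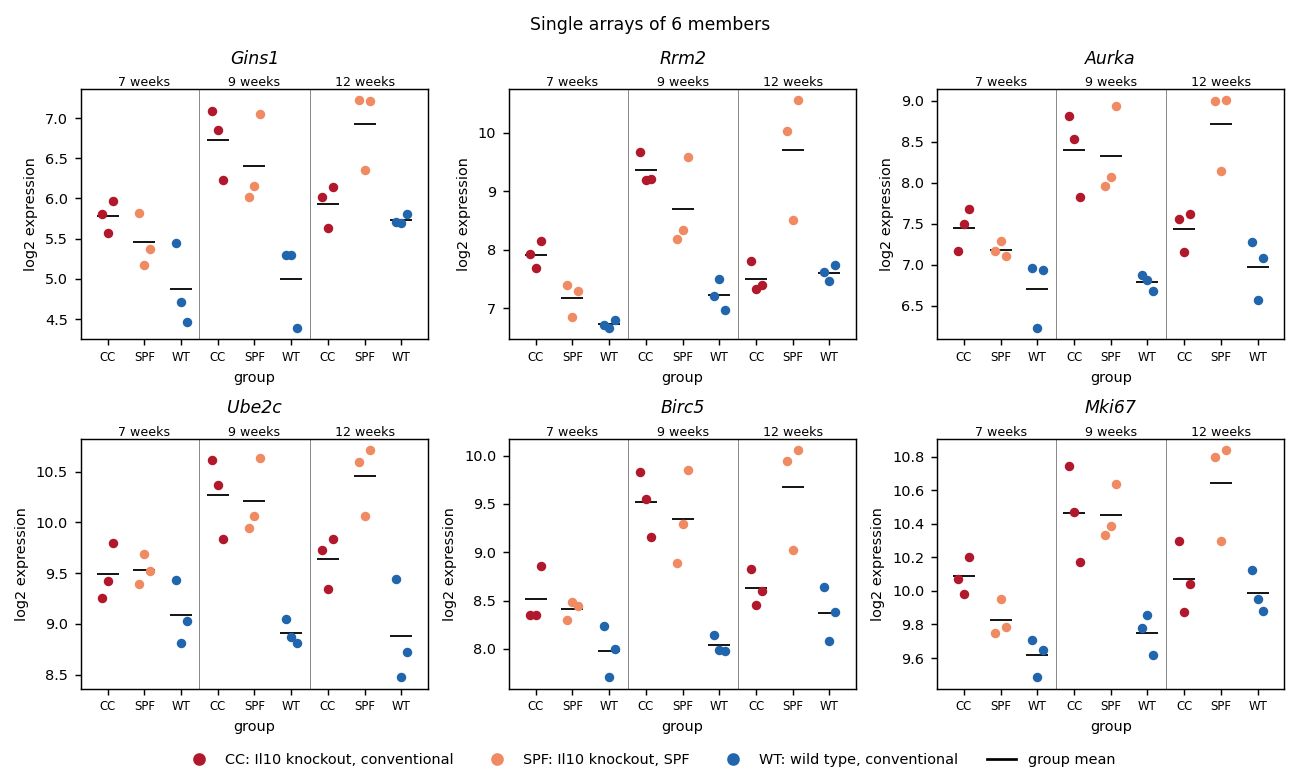
Log2 expression on single arrays of 6 of the 43 genes, by group (3 arrays each). In each panel the 9CC, 9SPF and 12SPF points stand above the wild types of their age, and the 12CC points overlap those of 12WT.

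At 7 weeks none of the 43 genes passed in 7CC against 7WT, where 0.341% of all genes rose. At an unadjusted p under 0.05, 29 were higher and none lower, where 6.57% of all genes were higher. The arrays of 28 were higher in 7CC without overlap, where 10.4% of all genes were, and the median difference was 0.56. Pcna and Chek1 came closest, at 0.61 ± 0.15 (adjusted p = 0.0701) and 0.75 ± 0.18 (adjusted p = 0.0703). Bub1, with 0.87 ± 0.24 (adjusted p = 0.127), and Rrm2, with 1.19 ± 0.36 (adjusted p = 0.19), were also short of the threshold. Ccne1 and Foxm1 had negative differences, both -0.16. In 7SPF against 7WT none passed (0.055% of all genes did), 3 were higher at an unadjusted p under 0.05 (3.08% of all genes), and the median was 0.26. In 7CC against 7SPF none passed (0.154% of all genes rose), 10 were higher at an unadjusted p under 0.05 (2.84% of all genes), led by Chek1 at 0.68 (adjusted p = 0.198), and the median was 0.30. The 7-week calls depended on how the arrays were weighted. With array quality weights 25 of the 43 passed in 7CC against 7WT, where 763 of all genes passed in either direction. With only those 6 arrays 8 passed, where 119 of all genes did. Leaving out single arrays gave at most 4, without 12SPF replicate 2, where 156 of all genes passed.

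With age, the wild-type mice showed no call. None of the 43 genes passed in 9WT against 7WT, 12WT against 9WT or 12WT against 7WT, where 0.0055%, 0% and 0.121% of all genes passed in either direction. At an unadjusted p under 0.05 there were 0 higher in 9WT against 7WT (1.76% of all genes) and 10 higher in 12WT against 7WT (7.02% of all genes). In 12WT against 9WT 6 were higher and 1 lower, where 6.56% of all genes were higher and 6.15% lower. Without 12WT replicate 2 none passed in either comparison of 12WT, and the medians were 0.36 against 9WT and 0.37 against 7WT, beside 0.25 and 0.24 with it. In SPF mice the genes were higher at the later ages. In 9SPF against 7SPF 6 rose (0.467% of all genes did), namely Rrm2, Ccna2, Cdk1, Bub1, Mki67 and Top2a, with a median over the 43 of 0.71. That count was 0 without 7SPF replicate 2 or 3 or 9SPF replicate 2 or 3, where 23 to 69 of all genes passed in either direction. It was 1 without 7SPF replicate 1 (49 of all genes) and 12 without 9SPF replicate 1 (345 of all genes). Arrays of other groups enter the spread, and it was 18 without 12SPF replicate 2 (410 of all genes). It was 1 without 9CC replicate 2 (99 of all genes) or 9WT replicate 2 (92). Without 7CC replicate 1 or 2, 7WT replicate 3, 9WT replicate 1 or 12CC replicate 3 it was 3 (100 to 120 of all genes). In 12SPF against 7SPF 40 rose (13.8% of all genes did), all but Tyms, Foxm1 and Cdc25c, with a median of 1.07. With the spread of these 6 arrays alone 10 rose, where 394 of all genes passed in either direction. Rrm2 rose there by 2.52 ± 0.36 (adjusted p = 0.000193) and Bub1 by 1.62 ± 0.24 (adjusted p = 0.000211). In 12SPF against 9SPF none passed (0% of all genes did), 11 were higher at an unadjusted p under 0.05 (9.64% of all genes), and the median was 0.29. Without 12SPF replicate 2, the lowest of its group, 18 passed, and without 9SPF replicate 3, the highest of its group, 2 passed. Of all genes tested, 3593 passed in the first of these fits and 1434 in the second, in either direction.

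In CC mice the genes were highest at 9 weeks. In 9CC against 7CC 15 rose (5.34% of all genes did), with a median of 0.53, led by Cenpa at 0.94 ± 0.22 (adjusted p = 0.0111), Nek2 at 1.03 ± 0.25 (adjusted p = 0.0132) and Birc5 at 1.00 ± 0.25 (adjusted p = 0.0141). In 12CC against 9CC 9 fell (5.4% of all genes did), with a median of -0.59: Rrm2, Mcm4, Mcm3, Cdt1, Rrm1, Birc5, Nek2, Ccna2 and Aurka. Rrm2 fell by 1.85 on the log2 scale, with an SE of 0.36 (adjusted p = 0.006). Both counts rest on single arrays. Counts of all genes that passed in either direction in the same fits moved too, and follow in brackets. The first was 0 without 9CC replicate 1 (429) or 7CC replicate 1 (442), 2 without 7CC replicate 2 (731) and 5 without 9CC replicate 2 (881). The second was 0 without 9CC replicate 1 (97) and 1 without 9CC replicate 2 (323) or 12CC replicate 2 (385). It was 4 without 12CC replicate 1 (289) or 12CC replicate 3 (660). It was 25 without 9CC replicate 3 (2046), 22 without 12SPF replicate 2 (2647) and 15 without 9SPF replicate 3 (1765). In 12CC against 7CC none passed (0% of all genes did), 1 was lower at an unadjusted p under 0.05 (2.63% of all genes), and the median was 0.03.

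At 12 weeks the 2 kinds of Il10-/- mice parted. In 12CC against 12SPF 32 of the 43 genes fell and none rose, where 13.6% of all genes fell, and the median was -0.83. The arrays of 37 were lower in 12CC without overlap, where 17.3% of all genes were. By role, 11 of 12 origin and S-phase entry genes fell, 3 of 5 of nucleotide supply, 6 of 10 of mitotic entry, 6 of 8 of the kinetochore and checkpoint and 6 of 8 of chromosomes and spindle. Rrm2 fell 4.56-fold, by 2.19 on the log2 scale with an SE of 0.36 (adjusted p = 0.00145), Cdc6 by 1.33 with an SE of 0.31 (adjusted p = 0.00513), Aurka by 1.27 with an SE of 0.28 (adjusted p = 0.00378) and Bub1 by 1.27 with an SE of 0.24 (adjusted p = 0.00213). The 11 that did not pass were Mcm6, Tyms, Tk1, Foxm1, Ccnb2, Cdc25c, Aurkb, Bub1b, Ttk, Kif11 and Kif20a. Leaving out 1 array at a time gave 14 to 34, and 14 of the 32 passed in every such fit. The count moved by over 1.5 times without 3 of the arrays, to 14 without 12SPF replicate 3, 19 without 12SPF replicate 1 and 20 without 12CC replicate 2. Of all genes 1357, 2176 and 2922 passed in these fits, in either direction. With the spread estimated from these 6 arrays alone none passed, and 20 genes passed in all.

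Against wild type the 12CC arrays gave no call among the 43 (0.451% of all genes passed in either direction), and the median was 0.21. At an unadjusted p under 0.05, 8 were higher and none lower, where 8.28% of all genes were higher. These were Bub1b at 0.58 (adjusted p = 0.106), Ube2c at 0.76 (adjusted p = 0.136), Aurkb at 0.83 (adjusted p = 0.145), Top2a, Plk1, Kif20a, Tpx2 and Tk1, 7 of them mitotic. The median was 0.06 over the 12 origin and S-phase entry genes and 0.00 over the 5 of nucleotide supply, but 0.40, 0.32 and 0.38 over the mitotic roles. Without 12WT replicate 2 none passed either, 2 were higher at an unadjusted p under 0.05, and the median was 0.19. The medians of the first 2 roles were then -0.05 and -0.02, and those of the mitotic roles 0.27, 0.26 and 0.24.

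The changes with age were tested between the kinds of mice. The CC minus WT difference was lower at 12 than at 9 weeks for 6 genes, Rrm2, Mcm4, Chek1, Ccna2, Mad2l1 and Mcm3 (1.44% of all genes were lower by this test), with a median of -0.77 and 31 lower at an unadjusted p under 0.05 (12.6% of all genes). That count was 0 without any 1 of the 9WT or 12CC arrays, 9CC replicate 1 or 2, or 12WT replicate 2. In those fits 0 to 78 of all genes passed in either direction. Without 9CC replicate 3 the count was 20, where 1351 of all genes passed. It was 19 without 12SPF replicate 2 (1618 of all genes) and 12 without 12SPF replicate 3 (723) or 9SPF replicate 3 (667). It was 3 without any 1 of the 7CC or 7SPF arrays, 7WT replicate 2 or 3, or 9SPF replicate 2 (187 to 222 of all genes). The CC minus SPF difference was lower at 12 than at 9 weeks for 25 genes (10.7% of all genes were lower), with a median of -0.90. With all genes that passed in either direction in brackets, the count was 9 without 9CC replicate 1 (1734). It was 11 without 9SPF replicate 1 (1562), 12SPF replicate 3 (1571) or 12CC replicate 2 (2293). It was 12 without 12SPF replicate 1 (1862), 14 without 9SPF replicate 2 (1901) and 15 without 9CC replicate 2 (2448). With the spread of those 12 arrays alone none passed (26). The CC minus WT difference at 9 against 7 weeks gave no call among the 43 (2.01% of all genes passed in either direction), with 13 higher at an unadjusted p under 0.05 (9.43% of all genes). The SPF minus WT difference at 12 against 9 weeks gave none (0% of all genes passed), with 1 higher at an unadjusted p under 0.05 (6.9% of all genes).

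The rise in 9CC and that in 12SPF, each against its own wild types, share no arrays and were compared directly. No gene of the 43 differed (0% of all genes passed), none had an unadjusted p under 0.05 (4.68% of all genes were higher and 3.84% lower), and the median of the difference was 0.04, or 0.13 without 12WT replicate 2, where none passed either. Across the 43 genes the 2 sets of differences had a Pearson correlation of 0.891, a description over genes that share their arrays. Mcm2 differed most by p, with 0.50 in 9CC and 0.87 in 12SPF, a difference of -0.37 ± 0.25 (adjusted p = 0.724).

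Over the 27 arrays most of the genes moved as 1 block. The Pearson correlation of a gene with the mean of the other 42 had a median of 0.935, was over 0.9 for 29 genes and over 0.8 for 39, as a description of arrays that also share their groups. It was highest for Prc1 (0.988), Kif23 (0.986) and Aurka (0.986) and lowest for Foxm1 (0.12), Tyms (0.22) and Ccne2 (0.70). Among genes outside every list used here, those most like the mean of the 43 by the same measure were Mrps7 (0.981), Ube2s (0.980), Nup85 (0.979), Ndc1 (0.977), Asf1b (0.975), Ran (0.973), Farsa (0.972), Lrrc59 (0.972), Cenph (0.971) and Trip13 (0.970). Trip13 had a 9CC minus 9WT difference of 1.67 ± 0.26 and Mrps7 one of 0.65 ± 0.14.

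Other genes of the same pathways were taken from lists that hold no member. Of 39 measured replication and repair genes, 30 rose in 9CC, 24 in 9SPF, 31 in 12SPF and none in 12CC against wild type, and 26 fell in 12CC against 12SPF. The count in 12SPF was 28 without 12WT replicate 2. Of all genes 14.2% rose in 9CC, 7.41% in 9SPF and 18.2% in 12SPF, and 13.6% fell in 12CC against 12SPF. Cdc7, the kinase that fires origins, rose by 1.81 ± 0.25 in 9CC (adjusted p = 6.89e-05), and Dbf4, its activator, by 1.18 ± 0.19 (adjusted p = 0.000323). Rad54l, of recombination repair, and Lig1, the ligase of replication, rose by 1.58 ± 0.26 and 0.96 ± 0.16. At 7 weeks, where no member passed and 0.341% of all genes rose, 5 of these 39 rose in 7CC against 7WT: Brca1, Pole, Mcm8, Pola1 and Prim1. Brca1 rose by 1.38 ± 0.25 (adjusted p = 0.0071), and the DNA polymerase genes Pola1 and Pole by 0.83 ± 0.15 and 0.95 ± 0.22.

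Of 42 mitosis and cytokinesis genes that are not members, 36 rose in 9CC, 35 in 9SPF and 34 in 12SPF, where 1 fell. None passed in 12CC against 12WT. Cep55, which acts at the last step of cytokinesis, rose by 1.55 ± 0.24 in 9CC, Cdca8, of the passenger complex, by 1.42 ± 0.22, Cdca2 by 1.17 ± 0.16 and the condensin subunit Smc2 by 1.11 ± 0.17. In 12CC against 12SPF 31 of the 42 fell and 1 rose, where 13.6% of all genes fell and 11.1% rose. Of 16 genes for G1 cyclins, their kinases and Myc/E2F factors, 10 rose in 9CC, 7 in 9SPF and 10 in 12SPF. The shares of all genes that rose there were 14.2%, 7.41% and 18.2%. E2f7 and E2f8, atypical E2F repressors, rose by 1.76 ± 0.35 and 1.30 ± 0.25 in 9CC, Ccnd1 (cyclin D1) by 1.07 ± 0.21 and Tfdp1, the partner of E2F proteins, by 0.71 ± 0.15. E2f2 rose already in 7CC, by 1.43 ± 0.25 against 7WT (adjusted p = 0.0068).

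Of 19 measured cell cycle brakes, more fell than rose. In 9CC 7 fell and 1 rose, in 9SPF 2 fell and 1 rose, and in 12SPF 10 fell and 2 rose against wild type. Of all genes 9.86%, 4.43% and 16.6% fell in these comparisons. Without 12WT replicate 2, 8 fell and 1 rose in 12SPF. Btg2, an antiproliferative gene, averaged 8.49 in 9CC and 9.27 in 9WT, and fell by 0.78 with an SE of 0.17 (adjusted p = 0.00305). Btg1, its relative, fell by 0.73 with an SE of 0.17 (adjusted p = 0.00363). Cdkn1b, the Cdk inhibitor p27, fell by 0.62 with an SE of 0.17 (adjusted p = 0.0122), and Wee1, the kinase that holds Cdk1 inactive, fell by 0.43 with an SE of 0.12 (adjusted p = 0.0126). Cdkn2b, Rb1 and Rbl2 also fell in 9CC, and E2f4 rose. In 12CC against 12SPF 7 of the 19 rose and none fell, where 11.1% of all genes rose, among them Btg2 and Cdkn2b, and in 12CC against 12WT none passed.

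Markers of other cells moved with these groups as well. All 8 macrophage and monocyte markers rose in 9CC and in 12SPF against wild type and 1 rose in 9SPF, and 7 fell in 12CC against 12SPF. Their mean level was 7.77 to 8.36 in 9CC, 6.72 to 7.56 in 9SPF and 6.44 to 6.80 in 9WT, and 6.84 to 7.09 in 12CC, 7.44 to 8.70 in 12SPF and 6.27 to 6.54 in 12WT. Of 7 T-cell markers 5 rose in 9CC, 1 in 9SPF and 6 in 12SPF. Of 7 neutrophil markers 2 rose in 9CC, none in 9SPF and 3 in 12SPF, among them S100a8, which averaged 10.26 in 9CC, 6.04 in 9SPF and 3.28 in 9WT. Of 7 smooth muscle markers 5 fell in 9CC, 1 in 9SPF and 7 in 12SPF, and all 7 rose in 12CC against 12SPF. Of 8 crypt stem cell markers, Cd44 and Prom1 rose in 9CC, none passed in 9SPF, and Lgr5 fell in 12SPF. Of 9 epithelial markers 2 rose and 1 fell in 9CC, and 1 rose in each of 9SPF and 12SPF. Of 7 B-cell markers 1 fell in 9CC and none passed in 9SPF or 12SPF. Of all genes 14.2% rose and 9.86% fell in 9CC, 7.41% rose and 4.43% fell in 9SPF, and 18.2% rose and 16.6% fell in 12SPF. For lists of 7 to 9 genes, the epithelial, crypt stem cell and B-cell counts of 0 to 2 are near or below those shares. Without 12WT replicate 2, 5 of the T-cell markers rose in 12SPF and the other counts given here for 12SPF stayed as they were. The part of these cells in the result was not tested.

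On 1 array the cycle genes stood apart from the macrophage and neutrophil markers. The array 9SPF replicate 1 had a centred mean of 0.20 over the 43 genes, above the range of the 9 wild-type arrays, -0.72 to -0.11. Its centred means for macrophages and for neutrophils, -0.32 and -0.58, lay inside the wild-type ranges, -0.78 to -0.24 and -0.71 to -0.48. On 9SPF replicate 3 the same 3 means were 0.77, 0.51 and 1.28. On 12CC replicate 1 they were 0.11, -0.21 and -0.45, all above the wild-type ranges, the last 2 narrowly. Other lists on 9SPF replicate 1 did leave the wild-type ranges. Smooth muscle (0.12), enteric neurons and glia (-0.09), pancreatic acinar cells (-0.28) and circadian clock genes (-0.40) lay below them. Epithelium (0.05) and crypt stem cells (0.19) lay above. T cells, B cells, germinal centre B cells, fibroblasts and endothelium lay inside.

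Circadian clock genes also differed between groups. Of 15, 4 rose and 7 fell in 7CC against 7WT, and the same numbers in 7CC against 7SPF, while none passed in 7SPF against 7WT. Of all genes 0.165% fell in the first comparison and 0.115% in the second. Dbp, a clock output gene, averaged 5.14 in 7CC, 10.22 in 7SPF and 10.18 in 7WT, and Arntl, a core clock activator, averaged 8.53 in 7CC, 6.26 in 7SPF and 6.36 in 7WT. At 9 weeks 1 rose and 3 fell in 9CC and 2 rose and 6 fell in 9SPF, and at 12 weeks 1 rose and 7 fell in 12SPF, all against wild type. Of all genes 14.2% rose and 9.86% fell in 9CC, 7.41% rose and 4.43% fell in 9SPF, and 18.2% rose and 16.6% fell in 12SPF, so the clock genes that rose in 9CC and 12SPF are a lower share than that of all genes. The hour at which the colons were taken is not in the labels. Its part in the values of the 43 genes was not tested.

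**Figure D5:**
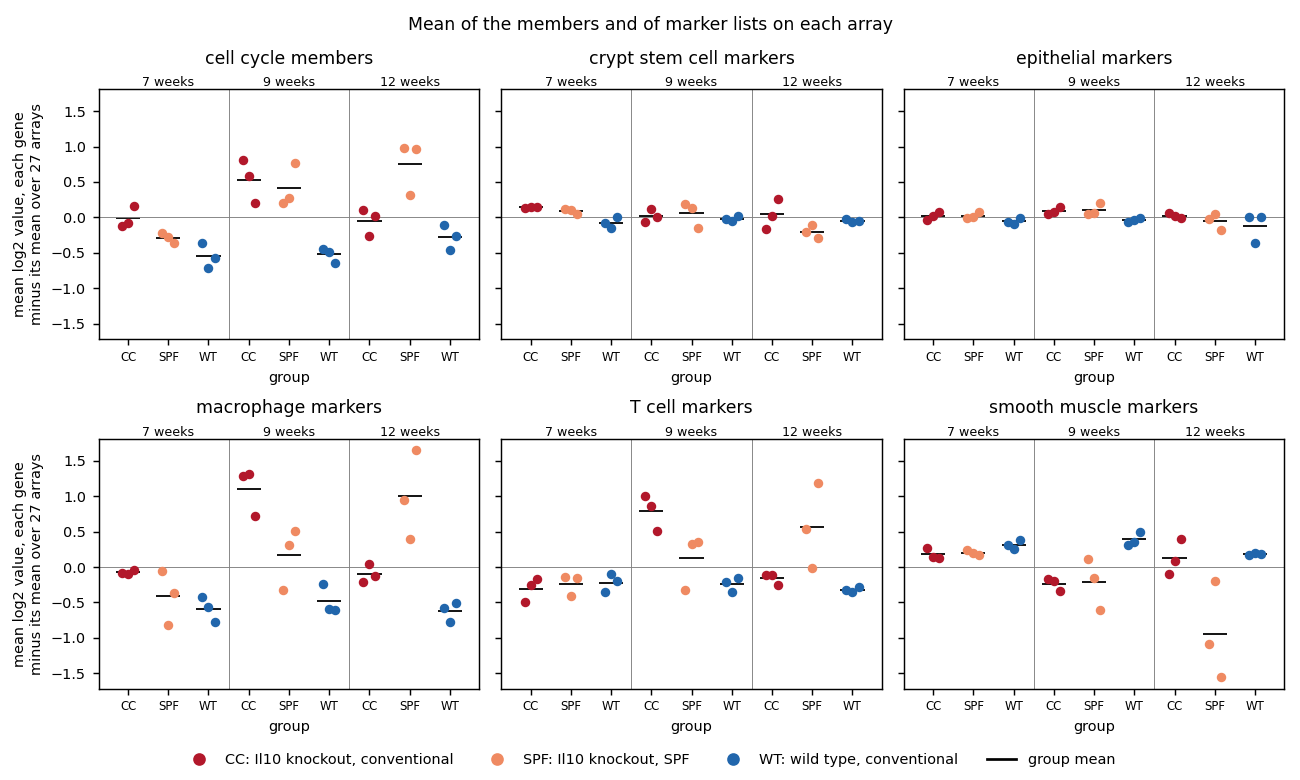
Mean on each array of the 43 genes and of marker lists, each gene centred on its mean over 27 arrays (log2 units), by group. The 43 genes and the macrophage markers are both higher on every 9CC and 12SPF array than on any wild-type array and have lower group means in 12CC. The array 9SPF replicate 1, picked after the values were seen, has raised cycle genes (0.20) with macrophage markers (-0.32) inside the wild-type range.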

How the data were processed

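Expression was measured on 27 Affymetrix arrays, 9 groups of 3. A rat array is named in the series' design text, although the identifiers belong to a mouse array. Per that text the authors normalized the arrays with affyPLM, and the values they deposited are read here as log2, from their range of 2.10 to 14.25. Its version and the background and summary steps are not given here. No scanner signals were used, so signal over background is unknown, and precision rests on 3 arrays per group.

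Of 45101 probe sets, 34945 carry 1 gene symbol in the platform annotation, 932 several and 9160 none; for each of 18193 genes the one with the highest mean over all arrays was kept, which can miss a gene's better probe set. limma 3.58.1 (R 4.3.3) fitted 9 group means with a spread shared by all arrays (18 residual degrees of freedom) and eBayes, with two-sided p-values adjusted by Benjamini-Hochberg over the 18193 genes of each of 23 comparisons. A gene "rose" or "fell" at an adjusted p under 0.05. The steps were tested on simulated data. Promoters came from a RefSeq table and were read with Python 3.11.15.

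The members and lists were chosen with earlier results of these data known. Single arrays are given for Il10, Mki67 and, in each of 5 roles, the 2 members with the largest and the 1 with the smallest absolute difference in 9CC against 9WT; every member is named; of each of the 4 other pathway lists up to 4 genes with the smallest adjusted p in that comparison are named, and others named beside them were chosen after their values were seen, as were the cell and clock markers named. The 10 genes most like the mean of the members are named too. There were 13 marker lists. Results of those not described in the text: germinal centre B cells 1 higher and 1 lower of 6 in 9CC against 9WT, fibroblasts none of 6, endothelium 1 higher of 6, enteric neurons and glia 3 lower of 6, pancreatic acinar cells 2 lower of 8.

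Replicate numbers are shared by all groups. Deviations of same-numbered arrays of the same age correlated at -0.438 to 0.264 over 27 pairs of arrays, 4 of them over 0.1. The numbers were therefore not taken to pair samples. Alternatives were another quantile normalization, median centring, no genes in the lowest 40%, averaging all probe sets of a gene, array weights, an intensity trend, only the arrays compared, a replicate block and leaving out each array.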

Additional observations from a re-analysis of the deposited data

Results flagged for a closer look

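The fall of the CC minus WT difference between 9 and 12 weeks, tested as an interaction, was past the threshold for 6 of the 43 genes. Of all genes 1.44% were lower. The count was not stable: leaving out each array in turn gave 0 to 20. It was 0 with all probe sets of a gene averaged or with the replicate block. With array weights it was 34, where 2841 of all genes passed in either direction. The CC minus WT difference at 12 weeks minus that at 9 weeks was -2.23 for Rrm2 and -1.31 for Mcm3.

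The difference between CC and SPF mice also changed between 9 and 12 weeks, for 25 of the 43 genes by the same kind of test. Of all genes 10.7% were lower. Leaving out 1 array at a time gave 9 to 31, and with the spread of only the arrays compared the count was 0. The CC minus SPF difference at 12 weeks minus that at 9 weeks was -2.84 for Rrm2, -1.45 for Mcm3, -1.34 for Aurka, -1.32 for Bub1, -1.31 for Gins1, -1.30 for Rrm1, -1.22 for Birc5 and -0.88 for Mcm2. At 9 weeks all of these except Mcm2 had positive CC minus SPF differences, of 0.05 to 0.65, none of which passed, and at 12 weeks all were negative.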

How the results depend on the processing

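The count in 9CC against 9WT (40 genes) stayed within 1.5 times under every alternative run, and the direction of no count turned under any alternative. Median centring and an intensity trend left every count of called genes within 1.5 times. With the replicate block, whose numbers were not found to pair the arrays, counts were 0 in 9CC against 7CC, 12CC against 9CC, 9SPF against 7SPF and the change of CC minus WT from 9 to 12 weeks, and no other count moved by over 1.5 times. Quantile normalization again gave 1 for the change of CC minus WT from 7 to 9 weeks and 3 for that from 9 to 12 weeks, and leaving out the lowest 40% of genes gave 11 for the second. Of all genes tested, 418, 215 and 559 passed in these fits, in either direction. When all probe sets of a gene were averaged, the median in 9CC against 9WT was 0.86. The counts were then 3 in 9SPF against 7SPF (107 of all genes) and 0 for the change of CC minus WT from 9 to 12 weeks (190). Array weights gave 25 in 7CC against 7WT, 1 in 7SPF against 7WT, 4 in 7CC against 7SPF, 11 in 9CC against 9SPF, 28 in 9CC against 7CC, 36 in 12CC against 9CC, 37 in 9SPF against 7SPF, 32 in 12SPF against 9SPF (median 0.61), 14 and 34 for the changes of CC minus WT to 9 and to 12 weeks, 4 for that of SPF minus WT and 41 for that of CC minus SPF (median -1.28). With only the arrays compared, fewer arrays set the spread. Counts, again with those of all genes in brackets, were 8 (119) in 7CC against 7WT, 20 (1321) in 12SPF against 12WT and 0 (20) in 12CC against 12SPF. They were 0 (16) in 9SPF against 7SPF and 10 (394) in 12SPF against 7SPF. The changes of CC minus WT to 9 and to 12 weeks gave 6 (1670) and 15 (1307), and that of CC minus SPF gave 0 (26). The cause of the other shifts was not tested.

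Leaving out each array in turn gave 0 to 4 genes in 7CC against 7WT, 0 to 1 in 7CC against 7SPF, 34 to 41 in 9CC against 9WT, 10 to 38 in 9SPF against 9WT, 0 to 4 in 12CC against 12WT, 36 to 41 in 12SPF against 12WT and 14 to 34 in 12CC against 12SPF. It gave 0 to 21 in 9CC against 7CC, 0 to 25 in 12CC against 9CC, 0 to 18 in 9SPF against 7SPF, 0 to 18 in 12SPF against 9SPF, 34 to 40 in 12SPF against 7SPF and 0 to 2 in 12WT against 7WT. For the changes of CC minus WT to 9 and to 12 weeks it gave 0 to 4 and 0 to 20, for that of SPF minus WT 0 to 1 and for that of CC minus SPF 9 to 31. The median of 12SPF against 9SPF ran from 0.19 to 0.54, and that of the 9CC rise minus the 12SPF rise from -0.21 to 0.20. For the 6 genes in the change of CC minus WT to 12 weeks, 22 of 27 such fits moved the count. Counts of all genes moved in such fits as well. In 12CC against 9CC they were 97 without 9CC replicate 1 and 2647 without 12SPF replicate 2. Of the genes followed by array, Mcm2 lost its call in 9CC against 9WT in 13 of 35 settings (0.40 to 0.85, adjusted p 0.00349 to 0.178), the other 12 called ones passed in all 35 (Tpx2 with differences of 0.45 to 1.67 and adjusted p up to 0.0446), and Tyms was not among the genes left without the lowest 40%.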
